A study of Mus musculus with 6 samples.

Results

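The 7 genes described here encode proteins that store maternal mRNA in the oocyte: *Zar1*, *Zar1l*, *Ybx1*, *Ybx2*, *Ybx3*, *Patl2* and *Msi2*. They were found by their gene symbols, and all 7 are listed among the 15707 genes of the authors' table of mean levels. The table compares *Btg4*-depleted oocytes with control oocytes, which were injected with siRNAs against *Btg4* or with control siRNAs, 3 libraries in each group and 50 oocytes in each library. All oocytes were mouse oocytes of (C57BL x CBA) F1 females 10 to 12 days old, taken from follicles that had been cultured for 8 to 10 days, and all had matured to metaphase II before RNA was collected. The question is how the transcripts of these genes stood in the polyadenylated RNA when BTG4, an adaptor of the CCR4-NOT deadenylase, was depleted. siRNA injection lowers a transcript and leaves the gene intact, and each library is a pool of oocytes and not 1 animal.

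A growing oocyte makes a large stock of mRNA and then stops transcription, so that meiosis and the first embryonic divisions run on stored messages. Storage proteins coat these mRNAs, keep them stable and hold back their translation. During maturation the stock is cleared in a programmed way, in which BTG4 brings the deadenylase to mRNAs and their poly(A) tails are shortened. The proteins described here come from 4 families. ZAR1 and its paralog ZAR1L (also named ZAR2) are oocyte zinc finger proteins that bind the 3′ UTRs of maternal mRNAs, and ZAR1 is needed to assemble a storage compartment around oocyte mitochondria. YBX1, YBX2 and YBX3 are Y-box proteins, which bind RNA through a cold-shock domain, and YBX2 (MSY2) is the germ cell member. PATL2 is the oocyte relative of the decapping factor PATL1, and in *Xenopus* it represses maternal translation. MSI2 is a Musashi protein that binds 3′ UTRs.

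The values are FPKM, which divide the fragments of a gene by its length and by the size of the library, and the authors give 1 mean over the 3 libraries of each group. No value of a single library was used here, so levels carry no SD, differences carry no test, and neighbours in an order of levels cannot be separated by their spread. Depth was estimated at 7820000 fragments per library, with percentiles 5 and 95 over 320 genes at 6920000 and 8120000. cDNA synthesis was primed on poly(A) tails, so a longer tail and more of an mRNA cannot be told apart, nor can fewer contributing oocytes and less RNA per oocyte. *Btg4* itself stood at 39.3 FPKM in *Btg4*-depleted oocytes and 1766 FPKM in control oocytes. All 10 oocyte markers set for the check, such as *Gdf9* and *Zp3*, were abundant, at 335 to 4440 FPKM in *Btg4*-depleted and 371 to 5445 FPKM in control oocytes. Of 12 granulosa and cumulus cell markers 7 are listed, with a summed level of 24.0 FPKM in *Btg4*-depleted and 33.2 FPKM in control oocytes, and *Foxl2*, *Fshr*, *Amh*, *Amhr2* and *Ptx3* are not in the table. Of the 7, 5 averaged at least 1 FPKM over both groups. The highest were *Inha*, at 12.0 FPKM in *Btg4*-depleted and 8.20 FPKM in control oocytes, and *Cyp19a1*, at 5.87 and 14.8 FPKM. The 3 of 4 theca and stroma markers that are listed sum to 1.02 and 1.48 FPKM in *Btg4*-depleted and control oocytes, and *Cd68*, the 1 listed marker of 3 for blood, stood at 0.527 and 1.00 FPKM.

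Ratios are log2 ratios of *Btg4*-depleted over control, taken on FPKM + 1 after scaling with the trimmed mean of M-values (TMM), which adds 0.16 to each log2 ratio before the pseudocount. They were taken over the 10012 genes with an average of at least 1 FPKM over both groups, whose median ratio is -0.02 after scaling and -0.15 without it. Levels and ratios are therefore relative to the other genes of a library. A rise or fall shared by most polyadenylated mRNAs would not be seen in them. Higher, lower and near the median are meant in this relative sense throughout. Of the 7 storage genes 6 passed this limit, all but *Msi2*. In *Btg4*-depleted oocytes *Zar1l* and *Zar1*, 2 of the 6, were higher by 2-fold or more, as were 19.5% of all measured genes. None (0 of the 6) was lower by 2-fold or more, as 11.4% of all measured genes were. The median log2 ratio of the 6 was 0.61. Without scaling, the genes past 2-fold were higher in 49.1% of cases instead of 63.1%, and *Zar1* was no longer among them.

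**Figure D1:**
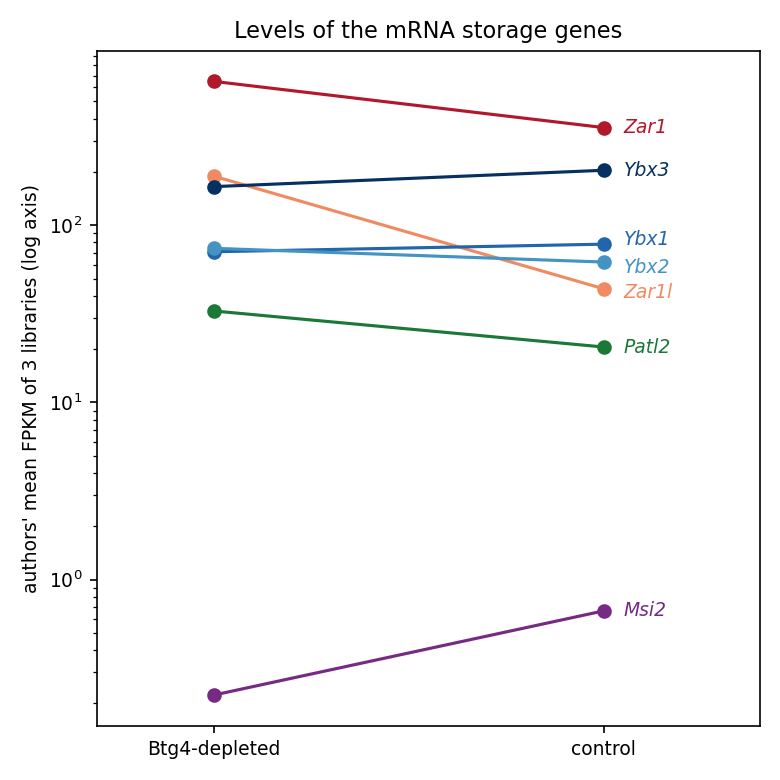
Authors' mean FPKM of each storage gene (log axis) in *Btg4*-depleted oocytes, left, and control oocytes, right, with a line joining the 2 means of a gene and no error bars because single libraries were not used. *Zar1l* is the 1 line that crosses several others, standing at place 2 in *Btg4*-depleted oocytes and at place 5 in control oocytes.

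The pair of ZAR genes held the largest log2 ratios of the 6 measured members. *Zar1*, whose name refers to zygote arrest, was the most abundant storage transcript in both groups. It stood at 648 FPKM in *Btg4*-depleted oocytes and 356 FPKM in control oocytes. It ranked 68th of all listed genes in *Btg4*-depleted oocytes and 142nd in control oocytes. *Zar1l*, whose product overlaps in function with ZAR1 in the oocyte, stood at 189 FPKM in *Btg4*-depleted oocytes and 43.8 FPKM in control oocytes. Its rank was 289 in *Btg4*-depleted oocytes and 1781 in control oocytes, the largest shift of rank among the 6 measured members.

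The log2 ratio of *Zar1l* was 2.25, or 4.75-fold, at percentile 98.7 of all measured genes. *Zar1* had a log2 ratio of 1.03, or 2.04-fold, at percentile 81.1. *Zar1* was thus just past the 2-fold limit, and *Zar1l* was well past it. The FPKM of *Zar1* was 3.43 times that of *Zar1l* in *Btg4*-depleted oocytes and 8.13 times in control oocytes, so the levels of these paralogs lay closer together in the depleted group. The estimated depth behind these means is 6515 and 3575 fragments per library for *Zar1* in *Btg4*-depleted and control oocytes, and 1297 and 300.01 for *Zar1l*.

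Both genes lie on the minus strand of chromosome 5 in GENCODE M21 on GRCm38. The coding transcript of *Zar1* has 4 exons from chr5:72577114-72581254, and its 3′ UTR is 146 nucleotides long. That of *Zar1l* has 4 exons from chr5:150507055-150518164, and its annotated 3′ UTR has 14 nucleotides. The length that the authors used for *Zar1l*, 876 bases, equals the length of its coding sequence with the stop codon, so fragments beyond the stop codon may not have entered its FPKM in either group. For *Zar1* the deposited length is 1284 bases, and the matched transcript has 1429. The last bases are shown because the 3′ end is where a tail is added and removed. Capitals mark the polyadenylation signal (AATAAA or ATTAAA) of *Zar1*, which starts 21 nucleotides before the end, and the stop codon of *Zar1l*.

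*Zar1*, chr5:72577117-72577146, minus strand: ataaagcctgtgAATAAAaggtattgcaaa

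*Zar1l*, chr5:150507055-150507084, minus strand: cttcagcttaaaaTAAaccttgtgacagtg

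Across the stop codon of *Zar1l* run the letters AATAAA, 19 nucleotides before the annotated end. Neither 3′ UTR held a cytoplasmic polyadenylation element (CPE, here TTTTAT or TTTTAAT on the transcript strand), a Pumilio element (TGTANATA) or an AU-rich pentamer (ATTTA). All were searched on the transcript strand, overlapping matches included, and 59.2%, 23.6% and 65.9% of measured genes hold them in their 3′ UTR. The annotated stretch of *Zar1l* is too short to be compared with other genes. Of the *Zar1* transcript, 22.8% of windows of 50 bases also occur in another annotated gene, chiefly *Gm15847*, an unprocessed pseudogene on chromosome 5 from 73013528 to 73017236 on the opposite strand, so that some *Zar1* fragments may be shared. The table does not list this pseudogene. No window of the *Zar1l* transcript occurs in another gene (0 of 846).

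**Figure D2:**
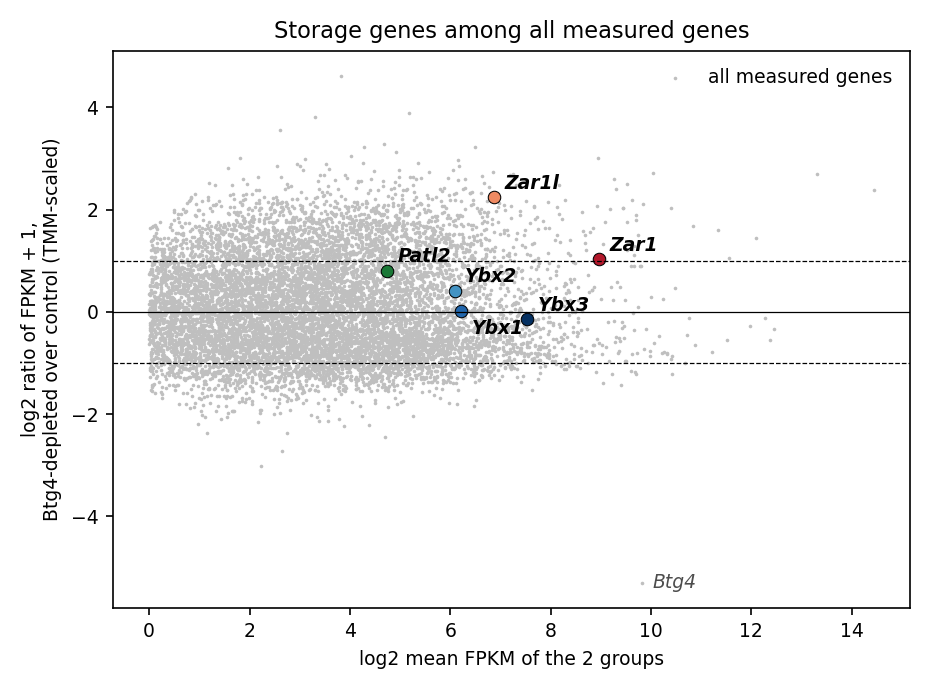
TMM-scaled log2 ratio of *Btg4*-depleted over control, from FPKM + 1 (vertical axis), against the log2 of the mean FPKM of both groups (horizontal axis) for the 10012 measured genes in grey and 6 storage genes in colour. Dashed lines mark 2-fold, with *Zar1l* at 2.25 and *Zar1* at 1.03 above the upper line and the Y-box genes between -0.14 and 0.42. *Msi2* did not pass the limit on level and is not drawn.

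The ratios of the Y-box genes lay near the median of all measured genes, while their levels were among the higher ones in both groups. *Ybx3* (MSY4), at 165 FPKM in *Btg4*-depleted and 204 FPKM in control oocytes, was the most abundant of them in both groups. *Ybx1* (MSY1, or YB-1), which is expressed in many cell types, stood at 70.9 FPKM in *Btg4*-depleted and 78.2 FPKM in control oocytes. *Ybx2*, the germ cell member, stood at 74.1 FPKM in *Btg4*-depleted and 62.0 FPKM in control oocytes. *Ybx1* and *Ybx2* therefore stood in the opposite order in the groups, at FPKM ratios of *Ybx1* to *Ybx2* of 0.956 in *Btg4*-depleted and 1.26 in control oocytes, a small difference with no replicate error to set it against.

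After scaling, the log2 ratio was 0.42 for *Ybx2*, 0.02 for *Ybx1* and -0.14 for *Ybx3*, at percentiles 64.2, 51.4 and 45.4 of all measured genes. The sign for *Ybx1* turns with the processing, to -0.14 without scaling. *Ybx2* was above 0 and *Ybx3* below 0 under every alternative tried, at 0.10 to 0.54 and -0.39 to -0.01. The 3 genes summed to 310 FPKM in *Btg4*-depleted and 345 FPKM in control oocytes, while both ZAR genes summed to 838 and 400 FPKM. The ZAR sum was 2.70 times the Y-box sum in *Btg4*-depleted oocytes and 1.16 times in control oocytes. Of the summed FPKM of all 7 storage genes, ZAR genes made up 70.9% in *Btg4*-depleted and 52.2% in control oocytes, and Y-box genes 26.3% and 45.0%.

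Each annotated 3′ UTR of the Y-box genes holds a CPE, the element through which CPEB1 recruits the machinery of cytoplasmic polyadenylation. In their whole 3′ UTR 59.2% of measured genes hold one. The ZAR genes hold none, but their annotated 3′ UTRs are shorter, at 146 and 14 nucleotides, so the families are not compared in this. *Ybx1* has 418 nucleotides of 3′ UTR with a CPE 88 nucleotides from the end and another at 241. *Ybx2* has 414 nucleotides with a CPE 62 nucleotides from the end, and *Ybx3* has 584 nucleotides with a CPE at 119. The sites nearest to the end are shown, with the CPE and any complete polyadenylation signal in capitals.

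*Ybx1*, chr4:119278050-119278079, minus strand: aagaacttcatTTTTAATttgtAATAAAgt

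*Ybx2*, chr11:69941532-69941561, plus strand: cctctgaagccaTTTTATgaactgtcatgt

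*Ybx3*, chr6:131364956-131364985, minus strand: tttaagaagaaaTTTTATgcccttatttat

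In *Ybx1* this CPE lies next to a polyadenylation signal 77 nucleotides from the end, and another signal lies 21 nucleotides from the end. In *Ybx3* the last signal lies 26 nucleotides from the end. The 3′ UTR of *Ybx2* holds none of the letters searched as a signal, whereas 78.4% of the measured genes hold one in the last 50 nucleotides. The last bases of *Ybx2* are shown for that reason, with nothing in capitals.

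*Ybx2*, chr11:69941576-69941605, plus strand: cagtaaaaacaaaagcaggctttcttgttg

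The matched *Ybx1* transcript has 1628 bases, against 2191 in the authors' table, so the end of the transcript that they counted may lie elsewhere. *Ybx1* also has processed pseudogenes, and 25.1% of its windows of 50 bases occur in 6 of them, with *Gm11560* holding 226 of 1579 windows. No window of *Ybx2* or *Ybx3* occurs in another gene. The level of *Ybx1* is thus less certain than those of its paralogs, in both groups.

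**Figure D3:**
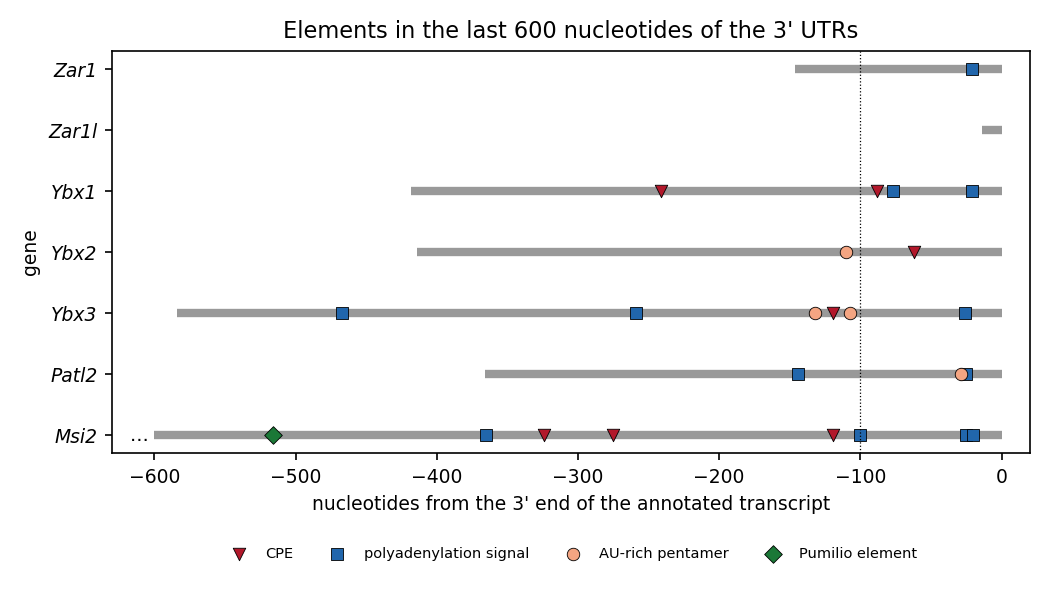
Last 600 nucleotides of the annotated 3′ UTRs (grey bars, distance from the transcript end on the horizontal axis), with CPEs as triangles, polyadenylation signals as squares, AU-rich pentamers as circles and Pumilio elements as diamonds. The dotted line lies 100 nucleotides from the end. *Ybx1* and *Ybx2* have a CPE within it, and *Zar1*, *Zar1l* and *Patl2* have none in their whole 3′ UTR.

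*Patl2* lay between the ZAR and Y-box genes in its ratio as reported, and below all of them in level. With the length trend removed its log2 ratio (0.76) was above that of *Zar1* (0.62). *Patl2* stood at 32.8 FPKM in *Btg4*-depleted and 20.6 FPKM in control oocytes, an estimated 625 and 391 fragments per library. Its log2 ratio was 0.81, or 1.75-fold, at percentile 75.9, and it stayed between 0.65 and 0.93 under every alternative tried. Its decapping relative *Patl1* was lower in level and did not share the direction, at 5.00 FPKM in *Btg4*-depleted and 6.97 FPKM in control oocytes (log2 ratio -0.27). The *Patl2* transcript matched the deposited length exactly, with 2434 bases in 18 exons from chr2:122120108-122186189 on the minus strand, and no window of it occurs in another gene. Its 3′ UTR of 366 nucleotides holds no CPE. It holds polyadenylation signals 144 and 25 nucleotides from the end, of which the last is shown in capitals, and 1 AU-rich pentamer that shares a base with that last signal.

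*Patl2*, chr2:122120115-122120144, minus strand: ggccttgtatttAATAAAagtctaatctgg

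*Msi2* was scarce. It stood at 0.223 FPKM in *Btg4*-depleted and 0.667 FPKM in control oocytes, an estimated 11.4 and 33.9 fragments per library over a transcript of 6505 bases. At this depth no direction is read from it, and its paralog *Msi1* is not in the table. The *Msi2* transcript also differs from the other members in its 3′ UTR, which has 5310 nucleotides against 14 to 584 in the others, and which holds 16 CPEs, 11 AU-rich pentamers and 3 Pumilio elements. The CPE nearest to the end lies 119 nucleotides from it and is shown in capitals.

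*Msi2*, chr11:88339483-88339512, minus strand: tggaaagtataaTTTTATatttgtattttc

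The order of levels, per length, was *Zar1*, *Zar1l*, *Ybx3*, *Ybx2*, *Ybx1*, *Patl2* and *Msi2* in *Btg4*-depleted oocytes, and *Zar1*, *Ybx3*, *Ybx1*, *Ybx2*, *Zar1l*, *Patl2* and *Msi2* in control oocytes. The main difference between these orders is the place of *Zar1l*, above the Y-box genes in *Btg4*-depleted oocytes and below them in control oocytes. The levels of *Ybx1* and *Ybx2* are neighbours in both.

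Transcript length and the presence of a CPE moved with the ratio over all measured genes, and the members differ in both. The 6 measured members have a median deposited length of 1686 bases, against 2684 for all measured genes. Among the 861 genes of up to 1000 bases, to which *Zar1l* belongs, the median log2 ratio was 0.63 and 38.1% were at least 2-fold higher, and 3.72% had a ratio as high as that of *Zar1l*. Among the 1167 genes of over 1000 and up to 1500 bases the median was 0.52, and 30.2% had a ratio as high as that of *Zar1*. Relative to genes of its own length *Zar1l* therefore still stood near the top, and *Zar1* stood less far from the middle.

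For genes of over 1500 and up to 2000 bases, where *Ybx2* and *Ybx3* fall, the median was 0.34. For those of over 2000 and up to 3000 bases, where *Ybx1* and *Patl2* fall, it was 0.04. With the trend on length removed, the log2 ratio was 1.72 for *Zar1l*, 0.76 for *Patl2* and 0.62 for *Zar1*, and the Y-box genes lay between -0.39 and 0.10. The part of length in these ratios was not tested.

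A CPE in the last 100 nucleotides is found in 20.3% of the 9089 measured genes with a 3′ UTR of that length, and these genes had a median log2 ratio of -0.45, against 0.04 for genes without one. Of the 6 storage genes with a 3′ UTR of that length, *Ybx1* and *Ybx2* hold one. With the window widened to 150 nucleotides *Ybx3* and *Msi2* join them. That makes 4 of the 5 storage genes with a 3′ UTR so long, at a share of 26.3% of measured genes. *Msi2* is counted among the storage genes in both windows, although it did not pass the limit on level and is not a measured gene. A longer 3′ UTR has more room for a match, and the presence of a CPE was not separated from length here. A match of letters is a description and was not tested against the ratios of the members.

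Other genes of maternal mRNA particles, 37 listed for their known roles, were set beside the storage genes. Of the 35 with sufficient level, 4 were past 2-fold on the higher side in *Btg4*-depleted oocytes and 5 on the lower side, against shares of 19.5% and 11.4% over all measured genes. A ratio below 0 was found for 24 of the 35, and for 5067 of the 10012 measured genes. Their median log2 ratio was -0.49, and -0.24 with the length trend removed. Their median length was 3612 bases, above that of the storage genes, and no test of the difference was possible.

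Among partners in translational repression, 1 of the 6 described here, *Ddx6*, was past 2-fold as reported. It was on the lower side, as were 11.4% of all measured genes. With the length trend removed *Ddx6* was not past 2-fold (-0.64), whereas *Eif4e1b* was (-1.11). *Ddx6*, an RNA helicase of mRNA particles, stood at 5.17 FPKM in *Btg4*-depleted and 13.8 FPKM in control oocytes (log2 ratio -1.12). *Lsm14a* and *Lsm14b*, scaffold proteins that bind DDX6, had log2 ratios of -0.97 and -0.71. *Eif4e1b*, the cap-binding protein of the oocyte, stood at 4.16 FPKM in *Btg4*-depleted and 9.45 FPKM in control oocytes (log2 ratio -0.88). *Eif4enif1* (4E-T), which joins cap-binding proteins to DDX6, went the other way with 149 FPKM in *Btg4*-depleted and 112 FPKM in control oocytes (log2 ratio 0.57). *Cpeb1*, which binds the CPE, had 96.2 FPKM in *Btg4*-depleted and 116 FPKM in control oocytes (log2 ratio -0.11), and its sign turned with the processing.

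*Dazl*, a germ cell activator of maternal translation, stood at 174 FPKM in *Btg4*-depleted and 355 FPKM in control oocytes (log2 ratio -0.86). *Igf2bp2*, which binds and stabilises mRNA, had a log2 ratio of -0.52. *Lin28b* (-1.39), *Celf1* (-1.20) and *Lin28a* (-1.06) were also past 2-fold in this direction as reported. With the length trend removed they were under 2-fold, at -0.97, -0.86 and -0.91.

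The 4 genes at least 2-fold higher were *Padi6*, *Cirbp*, *Rbm3* and *Pabpc1l*. *Padi6*, which is needed for the cytoplasmic lattices of the oocyte, stood at 1287 FPKM in *Btg4*-depleted and 386 FPKM in control oocytes (log2 ratio 1.90). *Cirbp* and *Rbm3*, RNA-binding proteins induced by cold, had log2 ratios of 1.49 and 1.27. With the length trend removed these were 1.07 and 0.89, the latter under 2-fold. *Pabpc1l*, the poly(A)-binding protein of the oocyte, stood at 75.2 FPKM in *Btg4*-depleted and 38.5 FPKM in control oocytes (log2 ratio 1.11). *Zar1l* had a higher ratio than each gene of this list as reported, but with the length trend removed *Padi6* stood at 1.82 and *Zar1l* at 1.72.

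**Figure D4:**
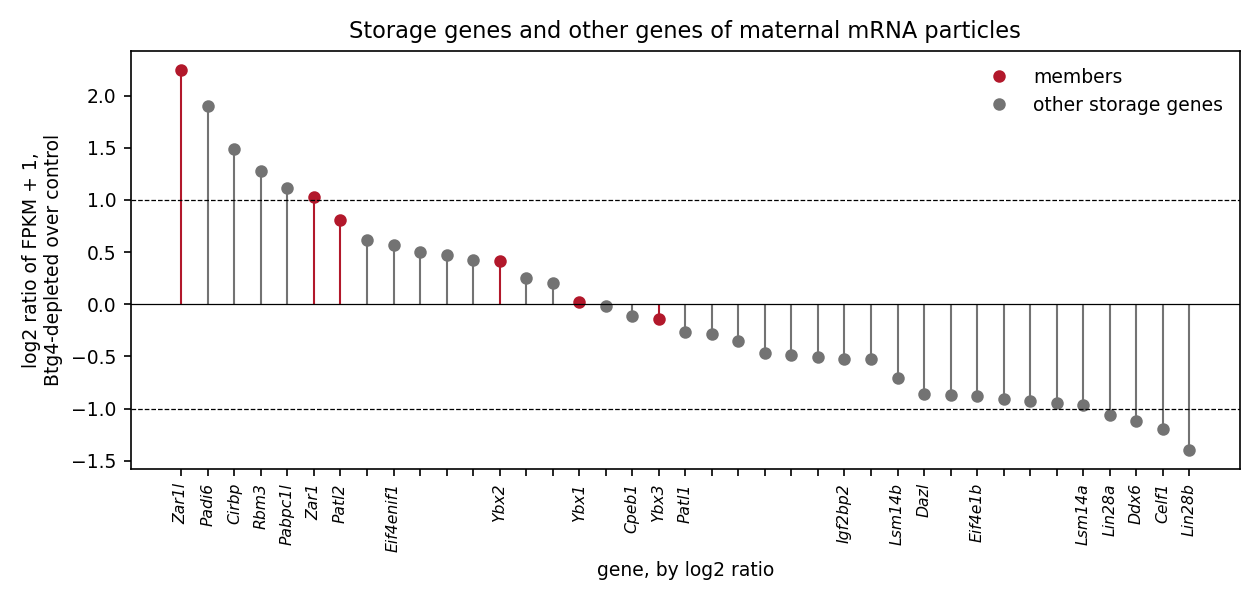
TMM-scaled log2 ratios of *Btg4*-depleted over control for 6 storage genes (red) and 33 of the 35 other genes of maternal mRNA particles (grey), ordered by ratio, with the 16 others described in the text labelled and dashed lines at 2-fold. *Zar1l* leads at 2.25, *Padi6*, *Cirbp*, *Rbm3* and *Pabpc1l* stand between it and *Zar1* at 1.03, *Patl2* stands next at 0.81, and *Ddx6*, *Celf1* and *Lin28b* stand at the low end.

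The ratios of the storage genes were recomputed under 8 other ways of processing. *Zar1l* lay between 1.72 and 2.37 throughout and was past 2-fold in each. *Zar1* lay between 0.62 and 1.16 and was under 2-fold without scaling (0.86), with quantile normalization (0.85) and with the length trend removed (0.62). The lowest ratio of both ZAR genes came with the length trend removed.

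**Figure D5:**
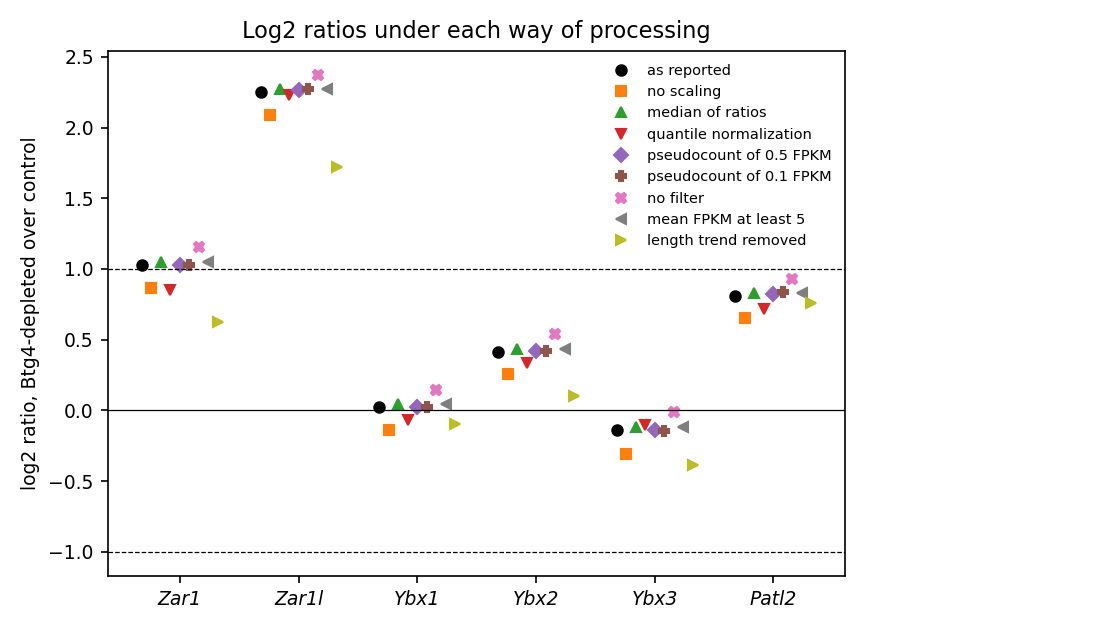
Log2 ratio of each measured storage gene, *Btg4*-depleted over control, as reported (black circle) and under 8 alternatives (coloured symbols), with dashed lines at 2-fold. *Zar1l* lies above the upper line under all of them, *Zar1* lies on both sides of it, and *Ybx1* lies on both sides of 0.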

How the data were processed

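RNA-seq libraries of 3 *Btg4*-depleted and 3 control samples were grouped by their labels. The authors deposited the mean FPKM of each group, with transcript lengths, and all values are whole multiples of 1/300 (tolerance 1e-06). BWA and mm9 are named in the processing notes of the submitters, and for the counting program and annotation nothing is given in the sources used here. The authors' lists of called genes also hold mean normalized counts (a signal over all 6 libraries, deposited from DESeq2), which served to estimate depth. The authors' log2 ratios, fold changes, p-values and probabilities in these files were not used.

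Group means were scaled by TMM (30% of ratios and 5% of levels trimmed on each side) with the offset shared between groups, and log2 ratios were taken with a pseudocount of 1 FPKM over genes with an average of at least 1 FPKM, which understates the differences of low genes. The scaling and ratio step was tested on simulated group means in which most genes were unchanged and as many rose as fell. That setting is simpler than these data, and the other computations were not tested in this way. With group means alone, no planned test was run. For each gene the GENCODE M21 coding transcript closest in length was taken through Entrez identifiers, for 96.2% of measured genes and all 7 members. It lies on GRCm38, not on the authors' build. Shared sequence was searched by exact windows of 50 bases, on both strands, in all annotated transcripts.

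All 7 members were named by rule, with *Btg4*, 12 preset genes of the list of other storage genes, any of that list past 2-fold, and the 3 genes nearest to the member of largest ratio. Some genes that this rule gives are not reported here. The members and lists were chosen with earlier results of these data known. Python 3.11.15, numpy 2.4.6, pandas 2.3.3 and statsmodels 0.14.6 (loess span 30%) were used.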

Additional observations from a re-analysis of the deposited data

How the results depend on the processing

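The number of storage genes past 2-fold, 2 as reported, was 1 without scaling, with quantile normalization and with the length trend removed, and 2 with median-of-ratios scaling, pseudocounts of 0.5 and 0.1 FPKM, no filter, and a minimum of 5 FPKM. All were on the higher side. The share of all measured genes on that side was 19.5% as reported, and 16.2%, 17.2% and 16.8% in the settings with 1 storage gene. It lay between 14.8% (no filter) and 23.2% (pseudocount of 0.1 FPKM) in the others. Their median log2 ratio was 0.45 without scaling and 0.36 with the length trend removed, against 0.61. *Ybx1* turned to -0.14 without scaling, -0.069 with quantile normalization and -0.097 with the length trend removed. *Zar1l*, *Patl2* and *Ybx2* were above 0 and *Ybx3* below 0 in all of these. Of the other storage genes, 5 as reported were at least 2-fold lower, against 12 without scaling, 9 with quantile normalization, 3 without a filter and 1 with the length trend removed. The share of all measured genes that was lower moved too, from 11.4% as reported to 16.7%, 14.8%, 5.28% and 10.5% in these settings. No paired analysis was possible because the table holds group means, and leaving out single libraries was not run for the same reason. Storage genes with a CPE numbered 2 of 6 in the last 100 nucleotides, 4 of 5 in the last 150 and 4 of 7 in the whole 3′ UTR. Only genes with a 3′ UTR as long as the window were counted. The shares of measured genes were 20.3%, 26.3% and 59.2%, and these leave out *Msi2*, which the counts of storage genes include. *Msi2*, at an estimated 11.4 and 33.9 fragments per library in *Btg4*-depleted and control oocytes, is limited by depth. For the ratios that turned or crossed 2-fold, the cause was not tested.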

Other observations

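Y-box genes share the cold-shock domain with *Lin28a* and *Lin28b*, a group named after its values were seen. The Y-box genes had log2 ratios of -0.14 to 0.42, *Ybx3* lowest and *Ybx2* highest, whereas *Lin28a* was at -1.06 and *Lin28b* at -1.39. With the length trend removed *Lin28a* and *Lin28b* were at -0.91 and -0.97, under 2-fold. Other genes with this domain were not set beside them, so the contrast is not one of the domain. *Lin28a* and *Lin28b*, known for blocking let-7 maturation, stood at 3.80 and 1.46 FPKM in *Btg4*-depleted oocytes and at 10.0 and 6.02 FPKM in control oocytes, far below the Y-box genes. The paralogs *G3bp1* and *G3bp2*, also named after their values were seen, had log2 ratios of -0.91 and -0.95, and *G3bp2* was at 251 FPKM in *Btg4*-depleted and 544 FPKM in control oocytes. They do not stand for a wider class, and of the 35 measured genes of their list 11 were above 0 and 24 below.

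The genes whose levels in both groups lay nearest to those of *Zar1l* were *Wash1* at 185 and 42.4 FPKM in *Btg4*-depleted and control oocytes, *Fbxw26* at 198 and 43.7 FPKM, and *Eif3m* at 171 and 41.6 FPKM. Their Euclidean distances from *Zar1l* over the log2 of FPKM + 1 were 0.054, 0.066 and 0.16, and each rests on 2 group means.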
